A study of Saccharomyces cerevisiae with 30 samples.

Results

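When a yeast culture is washed free of mating pheromone, the arrested cells leave G1 together and enter a cell cycle. Here transcript levels at 0, 10 and 20 min after release were compared with those at 30, 40 and 50 min in the Yeast Cell Cycle 2 dataset, and 6 of its 30 time points were used, 3 in each window. Features entered the comparison when their mean over the 30 time points was at least 10 TPM (a share of all transcripts in the library, corrected for transcript length), which 5137 of 7127 features did. All 6 samples came from 1 culture of Saccharomyces cerevisiae BF264-15D MATa bar1 grown in YEPDextrose at 38.5°C, held in alpha-factor at 40 ng/ml for 150 min and then released into fresh medium, so culture, strain, medium and temperature were shared by both windows. There is 1 library at each time point and there are no replicates. The 3 time points of a window follow one another and are not replicates of a condition, so no p-value was computed and every SD given here is over the 3 time points of a window. The paper's detector of transcriptome-wide anomalies flagged 0, 10 and 20 min, the whole early window, along with some later time points. The paper proposes that those at 0, 10 and 20 min could have a biological origin in the release from synchronization, and did not interpolate them. Their origin was not tested here. A bar1 strain lacks the secreted protease that degrades alpha-factor, and BAR1 was listed at 0 TPM at all 30 time points. Of the other labels of the strain, the a-cell gene STE2 stood at 256, 193, 174, 205, 191 and 236 TPM at 0 to 50 min, whereas the alpha-cell receptor gene STE3 had a mean of 5.39 TPM. Not all such markers were this low, since 4 of 19 listed markers of alpha cells, meiosis and sporulation had a mean of at least 10 TPM.

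Alpha-factor acts on a receptor and a mitogen-activated kinase cascade that switches on mating genes through the transcription factor Ste12 and holds the cyclin-dependent kinase inactive through Far1. After release, the G1 cyclins rise and the factors SBF and MBF switch on genes of budding and DNA replication, the histone genes follow in S phase, and the forkhead factor Fkh2 with Mcm1 and Ndd1 then switches on the CLB2 cluster, whose products drive mitosis and cytokinesis. In bulk samples such as these, fewer cells with a transcript and less of it per cell cannot be told apart.

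Raw TPM were higher in the later window for most features. The median log2 ratio of the 30-50 min mean over the 0-20 min mean was 0.37 for raw TPM, and 702 of 5137 features had a ratio below 0. TPM are shares of a fixed total, and the cytosolic ribosomal protein genes took 41.1%, 38.0% and 33.8% of it at 0, 10 and 20 min against 29.7%, 29.2% and 30.1% at 30, 40 and 50 min. Whether this share accounts for the raw shift was not tested. Each time point was also divided by its median-of-ratios factor, a median over the 6170 features above 0 TPM at all 30 time points. The factor is the median ratio of a feature's value to the geometric mean of that feature. The factors were 0.778, 0.748 and 0.922 at 0 to 20 min and 1.08, 1.05 and 1.15 at 30 to 50 min, and those at 10 and 0 min were the lowest of all 30. After this scaling the median log2 ratio was -0.05, so a fold change is given after scaling with the raw TPM fold in brackets, and likewise for log2 ratios.

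A feature was called when its window means differed at least 2-fold after scaling and the 3 values of one window did not overlap the 3 of the other. By this rule 44 features (0.857% of 5137) were higher at 30-50 min and 61 (1.19%) were lower. These shares are the background for the counts called in each gene list below. With raw TPM, 181 (3.52%) were higher and 20 (0.389%) were lower, and these included all 44 of the higher features and 20 of the 61 lower ones. All 61 lower features had a raw log2 ratio below 0. This and the inclusion of all 44 follow from the rule, because the later factors all exceed the earlier ones and lie within 2-fold of them. In raw TPM the windows did not overlap for 45 of the 61 lower features, and for the rest they did. Non-overlap alone, with no minimum fold, was met by 703 features (13.7%) above and 1020 (19.9%) below. Without the 20 min time point 91 features were called higher and 157 lower, without 0 min 41 of the 61 lower features were still called, and without 50 min 33 of the 44 higher ones were. In the deposited table of corrected scores all 61 lower features again stood below without overlap, but only 4 of the 44 higher features stood above. The nearest features inside the limit were YGR035C at 1.02 and MHF1 at -1.004 on the scaled log2 scale, and the nearest outside were YCR090C at 0.98 and AGP1 at -0.999.

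**Figure D1:**
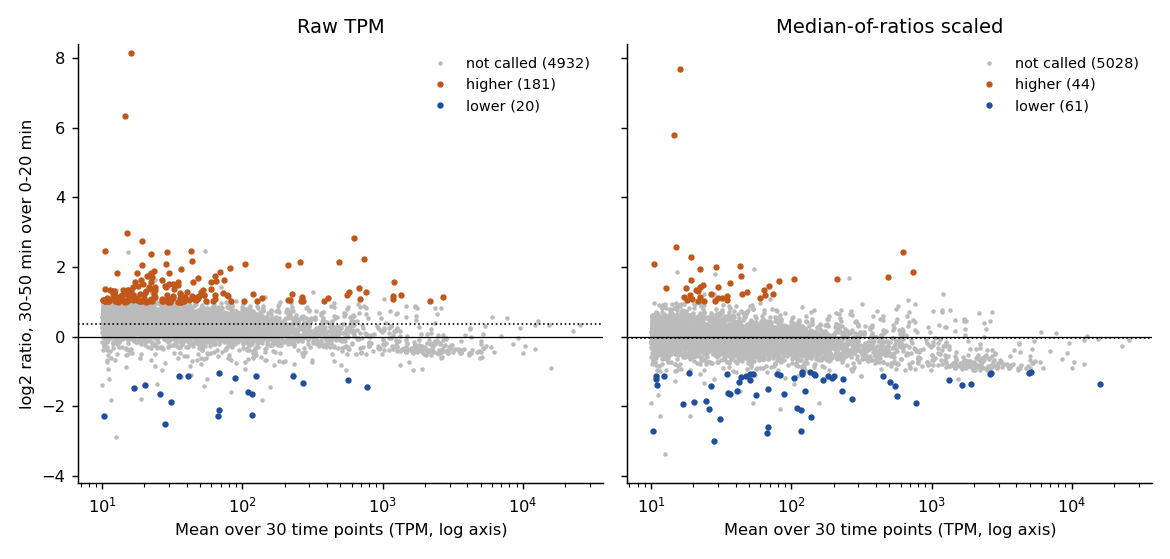
Log2 ratio of the 30-50 min mean over the 0-20 min mean (y axis) against the mean over 30 time points (x axis, TPM, log axis) for features of at least 10 TPM, from raw TPM (left) and after median-of-ratios scaling (right). Orange and blue points are features called higher and lower, the dotted line is the median of the points, and 4 features with no finite ratio are not drawn. With raw TPM 181 points are orange and 20 blue, whereas after scaling 44 are orange and 61 blue.

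The largest group among the higher features was the CLB2 cluster, the genes of mitosis and cytokinesis. Of its 17 members that passed the filter, 12 were called higher and none lower, and its median log2 ratio was 1.41 scaled and 1.82 raw. Reference sequence upstream of members is shown because Fkh2 and its relative Fkh1 bind GTAAACA, searched on both strands in the 500 bases before each start codon. These letters were present before 9 of the 17 genes (52.9%), against 618 of 6000 protein-coding genes (10.3%), in a list drawn from genes known for this control. Among all 39 higher features with an upstream sequence, 16 (41.0%) held them, but these 39 include called members of the list. The stretches run 5′ to 3′ on the strand of the gene in the R64 assembly of the S288C reference, which is not the strain used, with the motif in capitals. A match is a description of the letters and not a binding site, and the windows can reach into neighbouring genes.
SWI5 (chrIV:751001-751080, minus strand): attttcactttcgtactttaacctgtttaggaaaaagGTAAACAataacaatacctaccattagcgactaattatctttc
HOF1 (chrXIII:335061-335140, plus strand): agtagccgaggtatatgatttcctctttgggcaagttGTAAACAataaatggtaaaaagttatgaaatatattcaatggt
ALK1 (chrVII:454661-454740, plus strand): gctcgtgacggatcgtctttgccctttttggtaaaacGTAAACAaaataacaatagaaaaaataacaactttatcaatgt
BUD4 (chrX:598517-598596, plus strand): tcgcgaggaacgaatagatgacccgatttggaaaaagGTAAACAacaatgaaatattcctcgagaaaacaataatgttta

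CLB1, which encodes a mitotic B-type cyclin, had the largest ratio of the called genes with a symbol. It stood at 1.81, 1.88 and 3.13 TPM at 0, 10 and 20 min and 8.62, 17.8 and 27.5 TPM at 30, 40 and 50 min. Each time point of the later window was above all earlier ones, and the window mean went from 2.27 ± 0.743 TPM to 18 ± 9.44 TPM, a rise of 5.92-fold (7.90-fold raw). The early values of CLB1 were low, and the error of such values cannot be stated from TPM. CLB2, the major mitotic cyclin, stood at 6.72, 6.45 and 13.1 TPM at 0, 10 and 20 min and 22.1, 27.4 and 43.4 TPM at 30, 40 and 50 min and rose 2.68-fold (3.55-fold raw). SWI5, which encodes a transcription factor of the M/G1 boundary, was at 4.58, 3.28 and 7.0 TPM at 0, 10 and 20 min and 13, 25.5 and 38.0 TPM at 30, 40 and 50 min and rose 3.88-fold (5.15-fold raw). In these 3 genes the 20 min value was the highest of the early window, and the level increased at each step from 10 to 50 min.

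Genes of the division site rose as well. HOF1, whose product coordinates closure of the actomyosin ring with septum formation, was nearly flat in the early window, with 3.99, 3.02 and 3.01 TPM at 0, 10 and 20 min and 9.47, 22 and 35.2 TPM at 30, 40 and 50 min, a rise of 4.84-fold (6.66-fold raw). CHS2, the chitin synthase of the primary septum, had 9.92, 7.38 and 11.5 TPM at 0, 10 and 20 min and 26.6, 48.9 and 83.2 TPM at 30, 40 and 50 min, a rise of 4.08-fold (5.51-fold raw). The scaffold genes of the bud neck and ring, BUD4, IQG1 and MYO1, rose 3.11-fold (4.13-fold raw), 2.65-fold (3.54-fold raw) and 2.65-fold (3.53-fold raw). Kinases were also among them. ALK1, a haspin-like kinase gene, stood at 6.39, 5.54 and 11.1 TPM at 0, 10 and 20 min and 23.3, 37.3 and 62.8 TPM at 30, 40 and 50 min and rose 4.03-fold (5.36-fold raw). CDC5, the polo kinase of mitotic exit, rose 2.51-fold (3.36-fold raw). KIN3, another protein kinase gene, had 4.65, 4.23 and 5.66 TPM at 0, 10 and 20 min and 7.71, 11.5 and 23.9 TPM at 30, 40 and 50 min and rose 2.18-fold (2.97-fold raw). HST3, a histone H3 deacetylase of the sirtuin family, had 8.48, 10.2 and 16.1 TPM at 0, 10 and 20 min and 30.4, 49.4 and 76.1 TPM at 30, 40 and 50 min and rose 3.36-fold (4.49-fold raw).

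Of the 5 members not called, 4 had no overlap between windows but ratios short of 2-fold after scaling, among them BUD3 with a log2 value of 0.93 (1.34 raw), CDC20 with 0.91 (1.34 raw) and CLB4 with 0.77 (1.18 raw). With raw TPM all 4 were called. CLB3, the B-type cyclin paired with CLB4, was at 17.1, 17.5, 25.4, 26.5, 28.6 and 31.2 TPM, with windows that overlapped after scaling. Of the 17 members, 15 had their highest scaled value of the 6 time points at 50 min, against 869 of 5137 features (16.9%). The median member stood at 3.60-fold of its 0 min value at 50 min and higher again, at 4.52-fold, at 60 min (all after scaling).

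**Figure D2:**
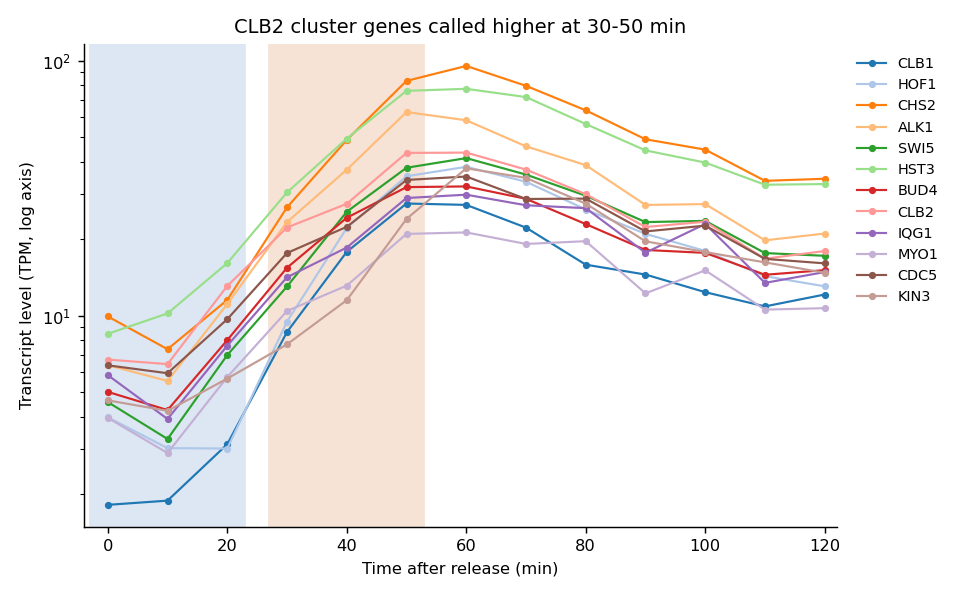
Transcript levels (y axis, TPM, log axis) of the 12 CLB2 cluster genes called higher, from 0 to 120 min after release (x axis), 1 library per time point. The early window is shaded blue and the later window orange. Every gene rises at each step from 30 to 50 min, and CHS2 reaches 83.2 TPM at 50 min.

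Outside this list, the called higher genes had varied roles. MRH1, which encodes a plasma membrane protein related to Hsp30, was at 61.3, 69.8 and 135 TPM at 0, 10 and 20 min and 314, 584 and 1008 TPM at 30, 40 and 50 min, a rise of 5.40-fold (7.16-fold raw). HSP30 itself was at 8.06, 15.9 and 37.3 TPM at 0, 10 and 20 min and 49.8, 69.7 and 120.0 TPM at 30, 40 and 50 min and rose 3.0-fold (3.91-fold raw). Both increased at each step from 0 to 50 min. PMP2, a small proteolipid that regulates the plasma membrane proton pump, had 60.4, 191 and 516 TPM at 0, 10 and 20 min and 810.0, 1139.8 and 1647 TPM at 30, 40 and 50 min, a rise of 3.65-fold (4.69-fold raw), and its 10 min value was already above that at 0 min. SUR7, an eisosome protein of the plasma membrane, rose 3.18-fold (4.19-fold raw) from 71.3 ± 35.1 TPM to 299 ± 99.4 TPM. PHO3 and PHO5, neighbouring acid phosphatase genes of closely similar sequence between which reads could be shared, rose 3.25-fold (4.41-fold raw) and 2.18-fold (2.98-fold raw). PHO3 was at 118, 84.7 and 132 TPM at 0, 10 and 20 min and 230.3, 378 and 869.9 TPM at 30, 40 and 50 min, so that most of its increase fell in the last step, and PHO5 was at 14, 10.8 and 14.1 TPM at 0, 10 and 20 min and 20.5, 26.7 and 68.2 TPM at 30, 40 and 50 min. The serine and threonine deaminase gene CHA1 rose 3.15-fold (4.21-fold raw), the siderophore transporter gene SIT1 2.35-fold (3.10-fold raw), the metal reductase gene FRE1 2.16-fold (2.86-fold raw) and the aromatic aminotransferase gene ARO9 2.34-fold (2.98-fold raw). SFG1, a factor of superficial growth, and NUF2, a kinetochore subunit, rose 2.90-fold (3.85-fold raw) and 2.08-fold (2.77-fold raw). The size of some of these changes rested on 1 time point. Without 50 min the scaled rise was 2.10-fold for PHO3 and 1.40-fold for PHO5, and without 20 min it was 6.53-fold for PMP2 and 4.56-fold for HSP30.

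The largest ratios belonged to features near 0 TPM in the early window, and no fold is given for YBL006W-A and YBR056C-B. YBL006W-A was at 0.15, 0, 0, 8.15, 26.7 and 7.31 TPM and YBR056C-B at 0, 1.15, 0, 69.1, 4.93 and 18.3 TPM from 0 to 50 min, both with zeros in the early window and with unsteady values in the later one, and neither is in the R64 gene table used here. MRX7, a mitochondrial protein gene of 261 bases, was at 1.65, 0.72, 4.08, 12.1, 6.91 and 16.4 TPM, and rose 4.26-fold (5.49-fold raw), or 6.92-fold after scaling without 20 min. Of the 44 higher features, 4 had a zero among the 6 time points, the others of these being the Ty genes YPR137C-A and YAR010C. Those 2 had identical values at every one of the 6 time points and cannot be counted as separate transcripts.

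The lower features were led by enzymes of leucine synthesis. LEU2 and LEU1 encode the isopropylmalate dehydrogenase and isomerase, and both are known targets of Leu3, a factor that is active when its ligand isopropylmalate is present. Leu3 binds palindromes of the form CCGGNNCCGG, where N is any base, and the stretches of the R64 reference that hold one before called genes are shown. Of the 46 lower features with an upstream sequence, 5 (10.9%) had this rare element, against 16 of 6000 genes (0.267%). The element was chosen for known Leu3 targets, which are among these 46, so this share is partly fixed by that choice.
LEU1 (chrVII:478825-478904, minus strand): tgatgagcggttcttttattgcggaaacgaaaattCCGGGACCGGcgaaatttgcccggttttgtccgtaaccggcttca
LEU2 (chrIII:91091-91170, plus strand): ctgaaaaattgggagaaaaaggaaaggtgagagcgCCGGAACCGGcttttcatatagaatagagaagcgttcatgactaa
BAT1 (chrVIII:517350-517429, plus strand): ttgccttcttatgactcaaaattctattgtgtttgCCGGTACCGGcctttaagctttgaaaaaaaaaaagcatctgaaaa
ILV5 (chrXII:839586-839665, minus strand): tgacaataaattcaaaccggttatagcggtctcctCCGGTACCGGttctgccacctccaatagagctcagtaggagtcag
GDH1 (chrXV:1043402-1043481, minus strand): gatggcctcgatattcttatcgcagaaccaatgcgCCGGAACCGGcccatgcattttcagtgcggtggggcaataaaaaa

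LEU2 stood at 233, 62.9 and 19.9 TPM at 0, 10 and 20 min and 17.7, 19.4 and 18.9 TPM at 30, 40 and 50 min. Its 20 min value was already near those of the later window, and the window mean went from 105 ± 112 TPM to 18.7 ± 0.867 TPM, 7.89-fold (5.63-fold raw) lower, the largest fall of the called genes with a symbol. LEU1 was at 431, 267 and 79.6 TPM at 0, 10 and 20 min and 56.5, 52.8 and 52.1 TPM at 30, 40 and 50 min and fell 6.75-fold (4.81-fold raw). BAT1, the mitochondrial branched-chain aminotransferase, was nearer its 0 min level at 10 min and lower from 20 min on, with 473, 409 and 169 TPM at 0, 10 and 20 min and 110.1, 105 and 123 TPM at 30, 40 and 50 min, 4.33-fold (3.11-fold raw) lower. ILV5 and ILV3, of the shared valine and isoleucine pathway, were 2.45-fold (1.77-fold raw) and 2.28-fold (1.66-fold raw) lower, although ILV5 overlapped between windows in raw TPM, at 1550.3, 689, 478, 494, 522 and 519 TPM. OAC1, a mitochondrial carrier that exports isopropylmalate, was at 133, 37.4, 21.4, 23.8, 24.2 and 26.7 TPM and fell 3.57-fold (2.56-fold raw), with overlap in raw TPM. GDH1, the glutamate dehydrogenase that supplies amino groups, fell 2.92-fold (2.16-fold raw) from 536 ± 81.5 TPM to 247 ± 75.9 TPM. Without the 0 min time point LEU2 was 3.09-fold and LEU1 4.50-fold lower after scaling.

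Of the genes of amino acid synthesis fewer were called. Of 37 members of the list, 7 were called lower and none higher, with a median of -0.43 scaled and -0.0043 raw. Besides the 5 branched-chain genes, the called members were ARG1, argininosuccinate synthetase, at 331, 461 and 346 TPM at 0, 10 and 20 min and 248, 234 and 227 TPM at 30, 40 and 50 min, and HIS4, a histidine enzyme, at 130.1, 82.2 and 70.9 TPM at 0, 10 and 20 min and 67.1, 46.8 and 43.6 TPM at 30, 40 and 50 min. ARG1 was 2.18-fold (1.61-fold raw) and HIS4 2.45-fold (1.80-fold raw) lower. The lysine gene LYS12 was at the other end of the list, with a log2 ratio of 0.22 (0.64 raw). The Gcn4 element TGACTC stood before 30 of the 37 genes (81.1%) against 759 of 6000 (12.7%), and the list was drawn from genes known for this control.

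Sulfate assimilation and methionine genes had the lowest median of all 24 lists, -0.93 scaled and -0.48 raw, and 4 of 19 were called lower. Cbf1, which recruits Met4 to these genes, binds CACGTG, and 14 of the 19 genes (73.7%) held these letters upstream, against 374 of 6000 (6.23%). The list was drawn from genes known for this control. The called genes with the motif are shown, with the motif in capitals.
MET17 (chrXII:732205-732284, plus strand): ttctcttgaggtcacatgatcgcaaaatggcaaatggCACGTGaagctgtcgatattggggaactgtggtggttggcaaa
MET14 (chrXI:439571-439650, minus strand): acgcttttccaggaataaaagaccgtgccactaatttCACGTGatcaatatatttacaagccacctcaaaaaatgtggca
SAM2 (chrIV:1454745-1454824, minus strand): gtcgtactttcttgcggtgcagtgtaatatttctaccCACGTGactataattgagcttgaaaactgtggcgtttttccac

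MET17, the O-acetylhomoserine sulfhydrylase that incorporates sulfide, stood at 631, 422 and 184 TPM at 0, 10 and 20 min and 89.9, 91.7 and 80.0 TPM at 30, 40 and 50 min. It decreased at each of the first 3 steps, and the mean went from 412 ± 224 TPM to 87.2 ± 6.28 TPM, 6.56-fold (4.73-fold raw) lower. A reading frame on the opposite strand, YLR302C, overlaps it. MMP1, a high-affinity S-methylmethionine permease, was at 206, 50.3 and 27.6 TPM at 0, 10 and 20 min and 26.8, 24.7 and 25.3 TPM at 30, 40 and 50 min and 5.15-fold (3.70-fold raw) lower. MET14, adenylylsulfate kinase, was 2.69-fold (1.94-fold raw) lower, and SAM2, an S-adenosylmethionine synthetase, 2.15-fold (1.58-fold raw). The paralog SAM1 was at 893, 321, 204, 269, 313 and 313 TPM, with its 20 min value below the later ones, and was not called. Without the 0 min time point the list median was -0.16 after scaling, MMP1 was 2.08-fold lower and MET14 1.55-fold lower.

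Low values were reached early. At 10 min, 14 of the 19 genes stood at least 2-fold below 0 min after scaling, against 126 of 5137 features (2.45%), and the same number did so in raw TPM, against 143 of 5137. Their median level at 10 min was 0.33 of that at 0 min and 0.288 of it at 50 min. STR3, a cystathionine beta-lyase, was at 134, 4.63, 4.76, 6.33, 6.53 and 6.46 TPM, and MET6, methionine synthase, at 839, 181, 129, 158, 137 and 131 TPM. Both had log2 ratios beyond the limit, -3.37 (-2.89 raw) and -1.90 (-1.43 raw), but their 10 or 20 min values reached into the range of the later window and they were not called. In all, 23 features were at least 2-fold lower and 12 at least 2-fold higher with windows that overlapped. MET3, ATP sulfurylase, was at 36.9, 16.9, 17.1, 19.5, 18.1 and 22.4 TPM.

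**Figure D3:**
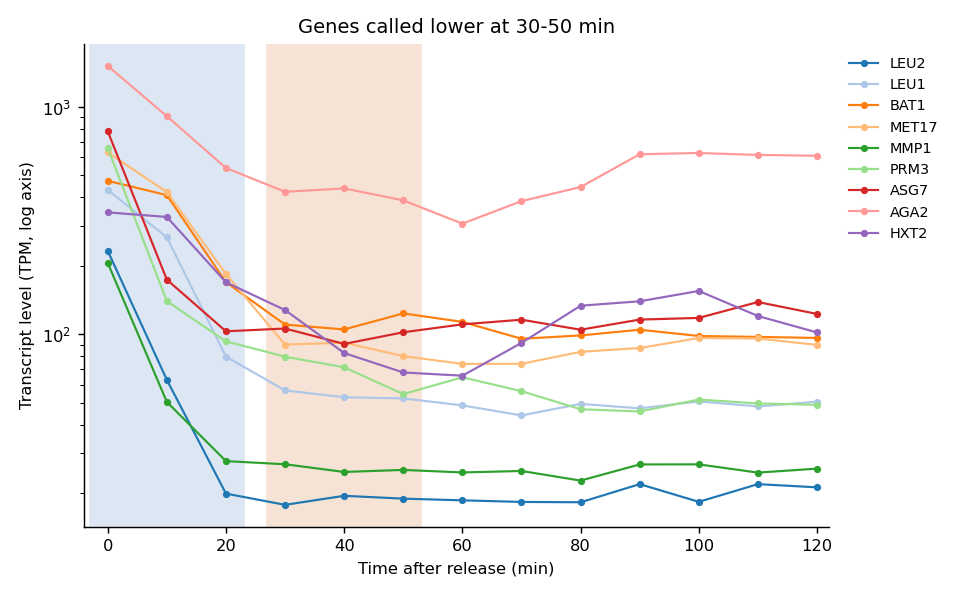
Transcript levels (y axis, TPM, log axis) of 9 genes called lower at 30-50 min, from 0 to 120 min after release (x axis), 1 library per time point, with the early window shaded blue and the later one orange. LEU2 and MMP1 reach their low level by 20 min, BAT1 and MET17 by 30 min, and AGA2 and HXT2 are higher at 80 to 120 min than at 50 min.

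Genes that pheromone induces for cell fusion had a median of -0.57 scaled and -0.14 raw, and 2 of 14 were called lower. Both called genes, and the a-specific genes AGA2 and ASG7, hold the Ste12 element TGAAACA or its reverse complement TGTTTCA, as did 10 of the 14 genes of the list (71.4%) and 721 of 6000 genes (12%). The list was drawn from genes known for this control. The stretches are shown with the copies in capitals, and PRM1 has 3 in the part shown and the others 1. In the whole window of 500 bases PRM1 has 3, PRM3 2, AGA2 2 and ASG7 1.
PRM1 (chrXIV:110699-110778, plus strand): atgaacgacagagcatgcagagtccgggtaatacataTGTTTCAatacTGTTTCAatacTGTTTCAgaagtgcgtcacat
PRM3 (chrXVI:183357-183436, minus strand): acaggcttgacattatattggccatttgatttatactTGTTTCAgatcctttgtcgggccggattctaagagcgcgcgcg
ASG7 (chrX:102158-102237, minus strand): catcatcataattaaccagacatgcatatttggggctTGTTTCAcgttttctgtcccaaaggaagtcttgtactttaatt
AGA2 (chrVII:437186-437265, minus strand): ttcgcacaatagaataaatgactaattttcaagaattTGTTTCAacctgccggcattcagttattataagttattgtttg

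PRM3, a nuclear envelope protein needed for nuclear fusion, stood at 658, 139.7 and 93.0 TPM at 0, 10 and 20 min and 79.6, 71.5 and 54.5 TPM at 30, 40 and 50 min. It was 6.0-fold (4.34-fold raw) lower, and its highest scaled value at 60 min or later was 6.94% of its highest scaled value in the early window. PRM1, a membrane fusion protein, was at 191, 76.0 and 85.3 TPM at 0, 10 and 20 min and 89.6, 73.2 and 66.1 TPM at 30, 40 and 50 min, 2.09-fold (1.54-fold raw) lower with overlap in raw TPM. The 0 min value stood far above the other 5 in both. Without it PRM3 was 2.29-fold and PRM1 1.39-fold lower after scaling. FIG1 and FIG2, surface proteins of mating cells, were not called because their 20 min values fell inside the later range, with 171, 34.7, 18.3, 19.9, 21.7 and 22.8 TPM for FIG1 and 559, 70.8, 68.5, 82.2, 76.1 and 73.6 TPM for FIG2. FUS1, a fusion protein that is a standard readout of the pathway, was at 41.9, 49.4, 49.4, 51.3, 42.3 and 38.9 TPM, with a log2 ratio of -0.51 (-0.09 raw). AGA1, the anchor of the a-agglutinin, was at 657, 270.5, 336, 415, 358 and 339 TPM, and the regulator KAR4 at 116, 72.2, 75.7, 91.1, 89.7 and 84.0 TPM.

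Of the a-specific genes, which mark the mating type, 2 of 6 were called lower, and the median over the 5 with a ratio was -0.43 scaled and 0.02 raw. AGA2, the adhesion subunit of the agglutinin, was at 1515, 909.8 and 538 TPM at 0, 10 and 20 min and 423, 438 and 388 TPM at 30, 40 and 50 min, 3.27-fold (2.37-fold raw) lower. ASG7, which encodes a regulator of signalling in zygotes, was at 781, 174 and 103 TPM at 0, 10 and 20 min and 106, 90.5 and 102 TPM at 30, 40 and 50 min. It was 4.95-fold (3.55-fold raw) lower with overlap in raw TPM, or 1.89-fold lower after scaling without 0 min. The pheromone genes themselves were poorly measured. MFA1 was listed at 0 TPM at all 6 time points, and MFA2 at 0 TPM at 0 min but at 2492 TPM at 10 min and 1885 TPM at 50 min.

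The signalling pathway, from receptor-coupled G protein to transcription factor, had no called member among 18 (median -0.07 scaled, 0.35 raw). STE12 was at 33.6, 41.5, 42.2, 44.3, 37.9 and 42.7 TPM, FAR1, the inhibitor that enforces the arrest, at 24.1, 22.4, 25.6, 32.6, 34.6 and 41.2 TPM, and the desensitizing regulator SST2 at 36.3, 32.3, 38.1, 48.6, 42.5 and 49.8 TPM. For FAR1 and SST2 the windows overlapped after scaling.

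Glucose-responsive genes were a further part of the lower features. Of 9 hexose transporter and glucose sensing genes, 3 were called lower (median -0.51 scaled, -0.08 raw). HXT2, a high-affinity glucose transporter repressed by high glucose, stood at 343, 328 and 169 TPM at 0, 10 and 20 min and 128, 82.6 and 67.8 TPM at 30, 40 and 50 min and was 4.16-fold (3.02-fold raw) lower. HXT7, whose near-identical neighbour HXT6 did not pass the filter and could share its reads, was at 88.8, 182 and 152 TPM at 0, 10 and 20 min and 121, 73.1 and 45.8 TPM at 30, 40 and 50 min, highest at 10 min and 2.36-fold (1.76-fold raw) lower by window. HXT4 was at 38.8, 51.9, 35.6, 37.5, 24.9 and 18.9 TPM, 2.11-fold (1.55-fold raw) lower. For HXT7 and HXT4 the windows overlapped in raw TPM. The low-affinity transporter HXT1, which high glucose induces, was at 28.6, 47.0, 57.4, 90.4, 85.9 and 86.5 TPM, with no overlap but a log2 ratio of 0.57 (0.98 raw), short of the limit.

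Among 20 glycolytic and fermentation genes, 2 were called lower, and both are minor isozymes (median -0.18 scaled, 0.25 raw). TDH1, a glyceraldehyde-3-phosphate dehydrogenase, was at 379.7, 304 and 255 TPM at 0, 10 and 20 min and 190.4, 145 and 95.2 TPM at 30, 40 and 50 min, 2.95-fold (2.18-fold raw) lower, and ENO1, an enolase, at 1134, 805 and 498 TPM at 0, 10 and 20 min and 383, 455 and 424 TPM at 30, 40 and 50 min, 2.66-fold (1.93-fold raw) lower. Their major counterparts TDH3 and ENO2 had log2 ratios of -0.09 (0.33 raw) and 0.03 (0.46 raw), and the isozyme TDH2 had 0.77 (1.19 raw). The isozymes are similar in sequence, and reads could be assigned to either. FDH1, formate dehydrogenase, was at 47.4, 33.7 and 23.3 TPM at 0, 10 and 20 min and 14.9, 11.4 and 11.5 TPM at 30, 40 and 50 min, 3.79-fold (2.76-fold raw) lower. ANB1, the hypoxic form of the translation factor eIF5A, fell 3.63-fold (2.63-fold raw), and NCE103, carbonic anhydrase, 2.31-fold (1.71-fold raw). ADF1 was 6.50-fold (4.82-fold raw) lower, but it lies opposite to FYV5, with which its reads cannot be told apart if strand was not used, and was low throughout, at 9.07, 14.1, 9.35, 6.74, 0 and 0 TPM.

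Other lower genes had mixed roles. MXR1, a methionine sulfoxide reductase, fell 3.04-fold (2.20-fold raw), and MET13, a methylenetetrahydrofolate reductase, 2.38-fold (1.73-fold raw). HRP1, a factor of mRNA 3′ end formation, fell 3.13-fold (2.25-fold raw), the mitochondrial aldehyde dehydrogenase gene ALD5 3.19-fold (2.30-fold raw) and the mitochondrial GTP carrier gene GGC1 2.09-fold (1.53-fold raw). YNL208W, without a symbol, was at 2207, 1754, 1361, 815, 645 and 483 TPM, and fell 3.73-fold (2.74-fold raw).

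Ribosomal protein genes were lower nearly as a whole, but by less than 2-fold. Of 136 members, which by their name pattern include the ribonuclease P gene RPP1, 126 lay below the early window without overlap after scaling, against 1020 of 5137 features (19.9%). Of the 136, 2, RPP2B and RPS29B, passed 2-fold, at log2 ratios of -1.04 (-0.60 raw) and -1.02 (-0.57 raw). The median was -0.79 scaled and -0.34 raw, and 128 members were below 0 in raw TPM, against 702 of 5137 features. RPP2B was at 7154, 7224, 6299, 4897, 4822 and 3923 TPM. RPL3 and RPS3, of the large and small subunits, had log2 ratios of -0.39 (0.05 raw) and -0.76 (-0.32 raw). The median member stood at 0.955 of its 0 min level at 10 min, at 0.702 at 20 min and at 0.503 at 50 min. Many of these genes are paralog pairs whose reads cannot be fully separated.

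Features of the ribosomal DNA were also called lower. TAR1, a reading frame antisense to the large ribosomal RNA, was at 19102, 50013 and 20519.8 TPM at 0, 10 and 20 min and 17430.4, 16879.5 and 13727 TPM at 30, 40 and 50 min, and TAR1 with the annotated rRNA and spacer features took 3.53%, 7.43% and 3.64% of the TPM at 0, 10 and 20 min and 3.10%, 3.08% and 2.37% at 30, 40 and 50 min. The 10 min library stood apart in this respect. TAR1 was 2.58-fold (1.87-fold raw) lower, with scaled values of 24541, 66903 and 22258 at 0, 10 and 20 min. At 30, 40 and 50 min these were 16164, 16033 and 11903, so much of the fall rested on the 10 min value. RDN25-1, RDN25-2, RDN18-1 and RDN18-2 were called lower as well, and the copies share their reads. The part of ribosomal RNA carried over into the libraries in these values was not tested. Without the 10 min time point, 44 features were called higher and 50 lower, of which 39 and 43 were among those called with it.

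**Figure D4:**
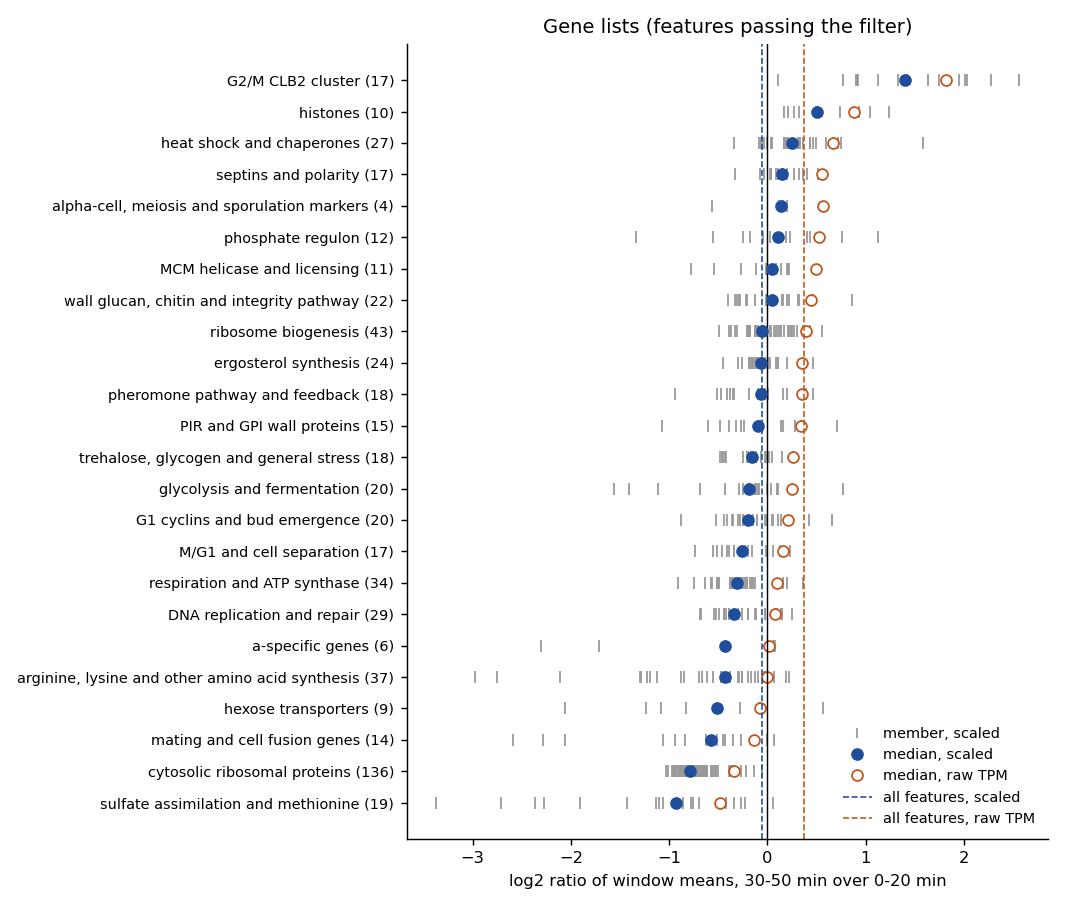
Log2 ratio of the 30-50 min mean over the 0-20 min mean (x axis) for 24 gene lists (y axis, number of members passing the filter in brackets). Grey ticks are members after scaling, filled circles list medians after scaling and open circles list medians from raw TPM, with dashed lines for the medians of all features. The CLB2 cluster lies farthest to the right at 1.41 and the sulfate genes farthest to the left at -0.93, and every open circle lies to the right of its filled one.

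Genes of the G1/S programme were high at times that belong to both windows. Of 20 genes of G1 cyclins and bud emergence none was called (median -0.20 scaled, 0.21 raw, 0.02 scaled without 10 min), and of 29 genes of DNA replication and repair none was called (median -0.34 scaled, 0.08 raw). After scaling, 17 of the 20 and 26 of the 29 were highest at 10 or 20 min among the 6 time points, against 1647 of 5137 features (32.1%). In raw TPM the numbers were 8 and 19, against 496 of 5137 features. At 10 min, 11 and 13 of them stood at least 2-fold above 0 min, as did 185 of 5137 features (3.6%). With raw TPM these were 11 and 8, and 161 of 5137 features.

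CLN2, a G1 cyclin, was at 23, 72.8, 70.3, 72.5, 55.4 and 55.7 TPM, and PCL1, a cyclin of the Pho85 kinase, at 20.5, 78.3, 64.6, 52.7, 39.8 and 26 TPM. TOS6, a cell wall protein gene controlled by SBF, was at 55.0, 414, 536, 368, 312 and 236 TPM. All 3 were low at 0 min and were past their highest value by 40 min after scaling, and their log2 ratios were -0.27 (0.14 raw), -0.88 (-0.46 raw) and -0.52 (-0.14 raw). Without 10 min the scaled ratio of CLN2 was 0.08. RNR1, the large subunit of ribonucleotide reductase, was at 55.1, 204, 197, 169, 135 and 120.0 TPM, POL1, the catalytic subunit of polymerase alpha, at 5.90, 14.3, 17.9, 16.8, 12.9 and 12.4 TPM, and the S-phase cyclin CLB5 at 9.44, 22.9, 20.1, 22.5, 21.9 and 20.6 TPM. MCD1, the cohesin kleisin, was at 5.42, 32.2, 31.4, 26.8, 21.5 and 19.1 TPM. The MBF element ACGCGT stood before 23 of the 29 replication genes (79.3%) against 325 of 6000 (5.42%), and the SBF element CGCGAAA before 13 of the 20 budding genes (65.0%) against 349 of 6000 (5.82%), in lists drawn from genes known for this control. Stretches are shown for RNR1 and POL30, the sliding clamp gene, with the MBF element in capitals, and for TOS6 with the SBF element in capitals, and RNR1 has 4 copies in the whole window of 500 bases, of which 2 are in the part shown.
RNR1 (chrV:298458-298537, plus strand): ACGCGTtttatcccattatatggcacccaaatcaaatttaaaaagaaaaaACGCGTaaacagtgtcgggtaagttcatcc
POL30 (chrII:425919-425998, minus strand): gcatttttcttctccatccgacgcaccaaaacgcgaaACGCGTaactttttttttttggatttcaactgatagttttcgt
TOS6 (chrXIV:65307-65386, plus strand): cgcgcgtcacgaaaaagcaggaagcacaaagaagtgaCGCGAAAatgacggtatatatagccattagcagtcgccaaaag

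By a rule set after the values were seen, a pulse was a feature highest at 10 or 20 min and at least 2-fold above both its 0 and its 50 min value after scaling. This held for 70 features (1.36%), of which 5 were called between windows and all of those as lower. It held for 9 of the replication genes and 6 of the budding genes. Outside these lists, the pulse included YOX1, a repressor of M/G1 genes, at 19.1, 58.6, 59.8, 57.0, 42.6 and 35.8 TPM, ACM1, an inhibitor of the anaphase-promoting complex, at 12.3, 36.9, 35.2, 30.6, 23.5 and 17 TPM, and the hexokinase gene HXK1 at 82.9, 283, 282, 205, 109 and 81.8 TPM. TAR1 met the rule too, and so did YLR154W-A, which was not counted in the rDNA share and was at 1419, 7266, 1923, 2334, 2877 and 1162 TPM.

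Histone genes came next. After scaling all 10 were lowest at 0 min and 7 were highest at 30 min, against 1395 (27.2%) and 428 (8.33%) of 5137 features. None was called (median 0.50 scaled, 0.88 raw). HTB2, a histone H2B gene, was at 119, 301, 817, 1198, 1084 and 959 TPM, with a log2 ratio of 1.04 (1.39 raw), beyond the limit, but a 20 min value inside the later range after scaling, and without 20 min the scaled log2 ratio was 1.83. HTA1, for H2A, was at 241, 347, 786, 863, 777 and 577 TPM. HHF1, one of the histone H4 genes, had the largest ratio of the list, 1.24 (1.57 raw), at 212, 289.6, 1204, 1856, 1714 and 1494 TPM, again with overlap. In raw TPM, 3 of the 10 were called higher.

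Genes of heat shock and chaperones, many of which are known targets of Hsf1, were lowest at 0 min after scaling in 25 of 27, against 1395 of 5137 features (27.2%). Of these 27, 23 stood at least 2-fold above 0 min at 20 min after scaling, against 234 of 5137 features (4.56%). In raw TPM 24 did, against 434 of 5137. HSP82, an Hsp90 chaperone, was at 46.7, 349.8, 906, 928, 769 and 797 TPM, SSA1, an Hsp70, at 438, 1086, 2737, 3118, 2295 and 2068 TPM, and the disaggregase HSP104 at 32.8, 139, 338, 283, 215 and 234 TPM. The median member was at 4.45-fold of 0 min at 20 min and 3.02-fold at 50 min. Between windows only HSP30 was called, and the list median was 0.25 scaled and 0.66 raw, and -0.06 scaled without 0 min. The heat shock element, searched as GAANNTTCNNGAA, was present before 14 of the 27 genes (51.9%) and 89 of 6000 (1.48%). The 2 overlapping copies before HSP104 and SSA1 run through one block of alternating TTC and GAA units, printed here in capitals.
HSP104 (chrXII:88287-88366, plus strand): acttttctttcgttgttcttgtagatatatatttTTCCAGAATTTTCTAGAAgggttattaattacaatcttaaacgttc
SSA1 (chrI:141750-141829, minus strand): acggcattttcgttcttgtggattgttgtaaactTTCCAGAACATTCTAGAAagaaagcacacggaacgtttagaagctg

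Genes of ribosome biogenesis took the opposite course. Of 43, 40 were highest at 0 min and 38 lowest at 20 min after scaling, and in raw TPM all 43 were lowest at 10 or 20 min but 29 were highest at 50 min. Over all 5137 features, 1764 were highest at 0 min and 700 lowest at 20 min after scaling, and 2673 were lowest at 10 or 20 min and 2516 highest at 50 min in raw TPM. The median member stood at 0.52 of its 0 min level at 20 min after scaling and at 0.741 at 50 min, or 1.10 in raw TPM. NOP1, the snoRNP methyltransferase fibrillarin, was at 719, 435, 392, 434, 522 and 544 TPM, and NOP56, of the same particle, at 117, 76.0, 83.3, 105, 117 and 141 TPM. None was called, and the window median was -0.05 scaled and 0.40 raw, or 0.33 scaled without 0 min.

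Respiration and ATP synthase genes were also highest early. Of 34, 29 were highest at 10 or 20 min after scaling and 23 in raw TPM, with none called (median -0.31 scaled, 0.10 raw). Over all 5137 features these numbers were 1647 (32.1%) and 496. CYC1, cytochrome c, was at 34.4, 304, 428, 336, 273 and 205 TPM, and ATP1, the alpha subunit of ATP synthase, at 205, 293, 346, 316, 276 and 277 TPM. Ergosterol genes were similar in timing after scaling only, with none called (median -0.07 scaled, 0.36 raw). Of 24, 20 were highest at 10 or 20 min after scaling, but in raw TPM 4 were, and 8 were highest at 50 min. ERG11, lanosterol demethylase, was at 222, 307, 328, 405, 397 and 425 TPM and ERG1 at 279.8, 221, 223, 273, 292 and 294 TPM.

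**Figure D5:**
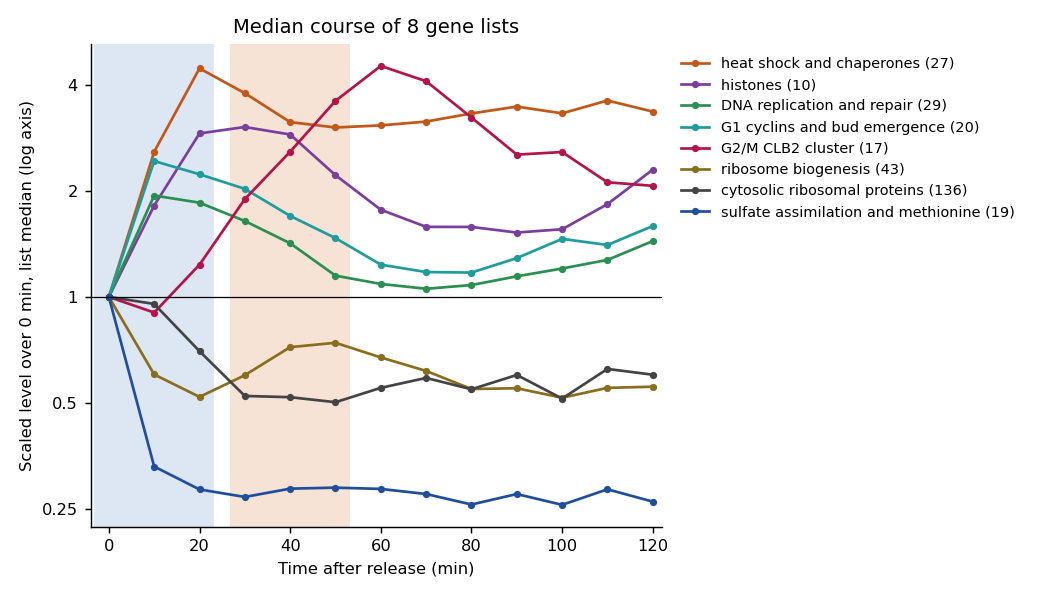
Median level of 8 gene lists relative to 0 min (y axis, after scaling, log axis) from 0 to 120 min after release (x axis), with the number of members in brackets and the early window shaded blue and the later one orange. Heat shock genes are highest at 20 min at 4.45, histones at 30 min at 3.03 and the CLB2 cluster at 60 min at 4.52, and the sulfate genes are at 0.33 by 10 min.

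The remaining lists held 0 to 1 called members. M/G1 and cell separation genes had none called of 17 (median -0.26 scaled, 0.16 raw), and the median member was at 0.648 of its 0 min level at 50 min and 2.00-fold of it at 90 min after scaling. SIC1, the inhibitor of S-phase cyclins, was at 18.8, 25.3, 30.3, 32.4, 24.9 and 25.8 TPM and then at 73.8 TPM at 80 min, and the chitinase gene CTS1 at 272, 138, 119, 200.3, 141 and 90.2 TPM and then at 745 TPM at 100 min. MCM helicase and licensing genes had none called of 11 (median 0.05 scaled, 0.49 raw, -0.07 scaled without 0 min and -0.09 without 50 min), with MCM2 at 15.0, 14.4, 13.2, 14.3, 13.9 and 19.9 TPM and CDC6 at 8.4, 9.59, 8.58, 10.8, 15.2 and 15.7 TPM. Septins and polarity genes had none called of 17 (median 0.15 scaled, 0.56 raw). The septin CDC11 was at 35.4, 40.4, 67.9, 78.6, 81.7 and 82.4 TPM and the polarity GTPase CDC42 at 219, 195, 220.0, 236, 223 and 222 TPM.

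PIR and GPI wall proteins had 1 member called lower of 15, SPI1, at 144, 161, 168, 134, 103 and 62.3 TPM (median -0.09 scaled, 0.35 raw), whereas CIS3 was at 745, 971, 1552, 1593, 1832 and 1821 TPM. CCW12 and CWP2, abundant mannoproteins, had log2 ratios of -0.27 (0.16 raw) and -0.08 (0.35 raw). Glucan, chitin and integrity pathway genes had none called of 22 (median 0.05 scaled, 0.45 raw, -0.06 scaled without 10 min), with the glucan synthase FKS1 at 92.7, 90.0, 141, 186, 167 and 180.3 TPM and the kinase SLT2 at 88.0, 43.5, 89.3, 105, 98.9 and 98.3 TPM.

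Of 12 phosphate regulon genes 1, PHO5, was called higher (median 0.11 scaled, 0.53 raw), whereas the transporter gene PHO84 was at 101, 13.9, 12.7, 19.3, 22.8 and 28.4 TPM, with overlap between windows and a log2 ratio of -1.33 (-0.85 raw), or 0.40 scaled without 0 min. Trehalose, glycogen and general stress genes had none called of 18 (median -0.16 scaled, 0.26 raw), with TPS1 at 93.3, 148, 167, 156, 119.7 and 119.8 TPM and the catalase gene CTT1 at 4.6, 5.05, 6.14, 7.69, 6.31 and 8.60 TPM. Of the markers of alpha cells, meiosis and sporulation, 4 of 19 passed the filter and none was called, and IME1, the inducer of meiosis, had a mean of 5.80 TPM and did not pass (median 0.14 scaled, 0.57 raw).

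The called features differed in what became of them later. Of the 44 higher features, 34 had their highest scaled value of the whole series between 40 and 80 min, 28 of them at 50 or 60 min. At 110 to 130 min 35 were lower than at 30 to 50 min, but 43 were above 0 to 20 min. On the log2 scale 39 were then nearer their level at 30 to 50 min. The features were picked by these windows, so the place of a maximum and a later decline are partly fixed by the rule. Of the 61 lower features, 55 had their series maximum at 0 to 20 min, and in 36 the highest scaled value at 60 to 290 min was less than 50% of the early maximum. At 110 to 130 min 52 of the 61 were nearer their level at 30 to 50 min on the log2 scale. The lower features were picked by the same windows, so their counts too are partly fixed by the rule. Shares over all 5137 features were not computed for the counts of this paragraph, so they are descriptions only. LEU2 reached 7.80%, MET17 11.9% and ASG7 13.9% of their early maximum later on, whereas HXT7 exceeded it, at 132%.

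Length moved with the ratios. Features under 400 bases had a median scaled log2 ratio of -0.20 and those of 2000 bases or more 0.12, and 13 of the 46 lower features with a gene model (28.3%) and 8 of the 39 higher ones (20.5%) were under 400 bases, against 7.58% of all. The part of length in these calls was not tested.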

How the data were processed

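RNA was made into stranded mRNA libraries and sequenced on a NovaSeq instrument. The authors aligned the reads with STAR and quantified them with RSEM against build R64 per the labels, with versions not given in the sources used here, and deposited TPM for 7127 features, which sum to 1000000 at each time point. TPM keep no depth, so no counting interval is given. They also deposited a table of corrected scores for 6622 features, in which features rank within a time point as Z-scores of TPM do (median rank correlation of 1), and which was used only as an alternative. How RSEM used strand is not given in the sources used here.

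Window means of TPM were compared as a log2 ratio with no pseudocount, raw and after division by median-of-ratios factors (Python 3.11.15, numpy 2.4.6, pandas 2.3.3), with no test, since each time point has 1 sample. Names, positions and sequences came from RefSeq R64, matched by locus tag for 6047 features (84.8%), and 1 listed symbol was not matched. The genes named are the 10 largest and 10 smallest scaled ratios among called features with a symbol, anchor genes of each of 24 lists, and the called members of a list (the 3 largest where over 5 were called); other genes were chosen after their values were seen. The windows, lists and rules were chosen with earlier results of these data known. The code that makes the calls was tested on simulated data with known changes, which does not bear on the calls themselves. Alternatives were other scalings, filters, pseudocounts, window means, fold limits and sets of time points. The values of 1 list member are not reported here.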

Additional observations from a re-analysis of the deposited data

How the results depend on the processing

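No paired analysis was possible because windows made of single libraries hold no replicates to pair. Against 44 higher, 61 lower and a median of -0.050, raw TPM gave 181, 20 and 0.37. Upper quartile factors gave 40 lower and a median of 0.0515, and factors from the 6 time points a median of -0.037. A mean of at least 1 TPM gave 85 higher and a median of -0.0218, and no filter 83 and -0.024. Geometric means gave a median of -0.035. A 1.5-fold minimum gave 151 higher and 331 lower, and a 4-fold minimum 8 and 10. Comparing 0 and 10 with 40 and 50 min gave 106 and 181. With no overlap and no fold minimum, corrected scores gave 795 above and 671 below and TPM 703 and 1020, of which 475 and 532 were shared and 8 stood on opposite sides. Leaving out 1 time point gave 42 to 91 higher, 50 to 157 lower and medians of -0.059 to -0.028. The highest counts were without 20 min, which left 43 of the 44 and all 61 called. A pseudocount of 1 TPM and allowing overlap kept the counts within 1.5 times. None of the 36 called genes that the naming rule gives changed sign. The rule of a call largely fixes this, since a 2-fold difference without overlap cannot reverse when time points are left out. With raw TPM it cannot reverse either, because the factors of the 6 time points lie within 2-fold of one another. The medians of 11 of the 24 lists changed sign with raw TPM. TPM give no depth, so the error of a low value such as those of YBL006W-A cannot be stated.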
